A study of Bos taurus with 6 samples.

Results

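The genes described here belong to zinc-finger and other transcription factor families and were measured by RNA-seq in MAC-T cells, an established line of bovine mammary epithelial cells. They were found by symbol: a gene was taken when its symbol in the study's gene lists, a short one of which the study chose on these libraries, began with one of 31 prefixes such as ZNF, ZBTB, FOX, RUNX or ELK, and when its identifier was in the count files. This gave 34 of the 29154 genes counted, with 33 symbols, since ZNF75D is the symbol of a pair of identifiers. Only 13 of the prefixes had a gene. The gene lists were held in part and paired 1410 identifiers with a symbol, and by their symbols in RefSeq (ARS-UCD2.0) the 34 genes lie on 3 chromosomes. The genes therefore sample these families and do not cover them. By the role each is known for, 32 of the 34 bind DNA, and the other two carry a family prefix without being such factors: PAXBP1 is a partner protein of PAX3 and PAX7, and ZNF185 is a LIM-domain protein of the actin cytoskeleton.

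The inhibitor NC group and the miR-375 inhibitor group had 3 libraries each. Both groups were the same cell line, transfected transiently with 100 nM of a control inhibitor or of an inhibitor of miR-375 and collected 48 h later, so they shared the transfection itself. They are called control and inhibited below, and values are given in the order of replicates 1, 2 and 3. The labels give triplicates without saying whether these were separate cultures, so the p-values rest on the spread between libraries. In edgeR's test, used below, the spread of a gene was estimated largely from all genes together (51.4 prior degrees of freedom). The level of miR-375 was not analysed here. Library totals lay between 14479278 and 16324556 counts, and the 34 genes together made up 0.0505% to 0.06% of each total.

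Transcription factors read DNA through a structural domain that defines their family. In C2H2 zinc-finger proteins, a tandem array of fingers contacts the DNA, and another domain such as KRAB, SCAN or BTB recruits partners, for the KRAB and BTB classes most often co-repressors. Forkhead, POU, SOX, RUNX, T-box, GATA and ETS factors use other folds, and many of them are restricted to one lineage, while a microRNA acts after transcription by pairing with the mRNA through its seed.

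After transfection with the miR-375 inhibitor, no gene of these families had an adjusted p under 0.05, which 1.69% of all genes tested had. ZBTB21, ZBTB38 and ZNF654 had the smallest unadjusted p-values. All 3 had lower values in the miR-375 inhibitor group, with differences of -9.13% for ZBTB38, -15.1% for ZNF654 and -18.2% for ZBTB21. They were 12% of the 25 tested members with an edgeR unadjusted p under 0.05, which 10.6% of all genes tested had. Among tested genes paired with a symbol the share was 15.4%. Without miR-375 inhibitor replicate 2 none of the 3 had such a p. RUNX1, ELK1, FOXO4 and the methyl-DNA reader ZBTB33 had values that overlapped between the groups. The pituitary, neural, gonadal and erythroid factors of the list were at or near 0 counts in both groups.

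Of the 34 genes, 9 had 0 counts in all 6 libraries, 8 averaged under 10 counts, and 17 averaged 10 or more. The genes at 0 were POU1F1, a factor of the anterior pituitary, POU3F4 and SOX14 of neural tissue, FOXL2 of ovarian granulosa cells, TBX22 of the developing palate, FOXR2, KLF8, ZNF157 and ZNF711. A count of 0 allows up to 3 counts, which corresponds to between 0.184 and 0.206 CPM over the libraries (CPM is a count scaled to the TMM-adjusted total of its library) and covers counting error only. FOXP3, the factor of regulatory T cells, had 1, 2 and 1 counts as control and 3, 1 and 2 counts when inhibited. GATA1 of the erythroid lineage, NR1I2, the xenobiotic receptor of liver and gut, and ZNF41 each had a single count over the 6 libraries. ZNF185 had 0, 0 and 2 counts against 2, 0 and 3.

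The remaining low genes were the zinc-finger genes ZNF81, ZNF449 and ZSCAN23. ZNF81 had 9, 13 and 13 counts as control and 5, 11 and 2 when inhibited, so the groups overlapped. Its log2 fold change was -0.90 with a standard error of 0.54, a p of 0.099 before and 0.59 after adjustment in edgeR's quasi-likelihood test, adjusted by Benjamini-Hochberg over all genes tested. This unadjusted p was the smallest of the 8 low genes. ZNF449 had 2, 6 and 3 counts against 4, 2 and 0, and ZSCAN23 had 4, 2 and 3 against 6, 3 and 1. In the RefSeq gene order ZNF81 stands next to ZNF182 and ZNF157 next to ZNF41, with no coding gene between them. Of ZNF81 and ZNF182 only ZNF182 was counted deeply, and ZNF157 and ZNF41 were both at 0 or 1 counts in every library. None of the 8 exceeded 13 counts in any library, and none had an unadjusted p under 0.05 with all 6 libraries.

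The comparison of the groups asks whether inhibition of miR-375 altered the mRNA of these factors. In bulk RNA, fewer cells of a type and less RNA per cell cannot be told apart. It was made by edgeR's quasi-likelihood test on 20755 genes, those not at 0 in every library, 25 of them members of these families. An adjusted p under 0.05 was reached by 1.69% of all genes and by 0 of the 25, whose smallest adjusted p was 0.24. An unadjusted p under 0.05 was reached by 10.6% of all genes tested and by 15.4% of the 1001 tested genes that the study's lists pair with a symbol. Among the 25 family members it was reached by 3, or 12%, which lies between these shares. All 3 were lower in the miR-375 inhibitor group, where 5.96% of all genes and 10.4% of those paired with a symbol had such a p in that direction. DESeq2, the tool of the study's methods, gave no adjusted p for 17 of the 25, among them ZBTB21. None of the others had an adjusted p under 0.05 in DESeq2. Of the 25, 2 had an unadjusted p under 0.05 in DESeq2, against 5.63% of all genes.

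The ZBTB genes encode zinc-finger proteins with a BTB domain, through which they pair with each other and recruit co-repressors. All 5 were counted well above the floor, and 2 of them had an unadjusted p under 0.05, as had 14.6% of all genes averaging 10 or more counts. Normalized counts are counts divided by each library's TMM-scaled size relative to the geometric mean of the 6 sizes. ZBTB21 (ENSBTAG00000030836) had normalized counts of 259.6, 260.8 and 247.3 as control and 218.1, 187.8 and 221.5 when inhibited. Each miR-375 inhibitor library was below each inhibitor NC library. The group values were 255.9 ± 7.44 (SD, n = 3) and 209.1 ± 18.5 (SD, n = 3). The log2 fold change was -0.29 with a standard error of 0.11 and a 95% interval from -0.51 to -0.07. Its unadjusted p was 0.011 and its adjusted p 0.24 by edgeR's quasi-likelihood test, and without miR-375 inhibitor replicate 2 the unadjusted p was 0.073.

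ZBTB38 (ENSBTAG00000040061), a reader of methylated CpG sites, had normalized counts of 3032, 3140 and 3129 as control and 2941, 2691 and 2821 when inhibited. The groups did not overlap, with means of 3100.2 ± 59.3 (SD, n = 3) and 2817.4 ± 125 (SD, n = 3). Its log2 fold change was -0.14 with a standard error of 0.05, a p of 0.013 before and 0.26 after adjustment by edgeR's quasi-likelihood test. The unadjusted p was 0.055 without inhibitor NC replicate 2 and 0.078 without miR-375 inhibitor replicate 2. It held the most counts of the list, and its standard error was the smallest.

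The other ZBTB genes had groups that overlapped. ZBTB11 (ENSBTAG00000013460) had normalized counts of 524.5, 535.8 and 625 against 541, 465.9 and 532.7, a log2 fold change of -0.13 and a 95% interval from -0.30 to 0.04. ZBTB33 (ENSBTAG00000017184), also called Kaiso, binds methylated DNA like ZBTB38, and had normalized counts of 838.3, 768 and 881 against 818.7, 769.2 and 937.4. The log2 fold change of ZBTB33 was 0.02 with a 95% interval from -0.13 to 0.17. The difference between ZBTB33 and ZBTB38 was not tested. ZBTB20 (ENSBTAG00000011928), a repressor known from liver and brain, had normalized counts of 123.4, 102.8 and 74.77 against 112.1, 104.9 and 95.46. Its inhibitor NC libraries held both the highest and the lowest value, its log2 fold change was 0.06, and without inhibitor NC replicate 3 it was -0.12.

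Of the 14 identifiers of ZNF and ZSCAN genes, 8 averaged 10 or more counts, and 6 of these (75.0%) had a log2 fold change below 0. With such counts, 50.6% of all genes and 55.6% of those paired with a symbol were below 0. The share was also 75.0% for the transcription co-regulators described below. ZNF654 (ENSBTAG00000023675) had normalized counts of 425.5, 427.3 and 440 as control and 409.4, 298 and 389.5 when inhibited. The groups did not overlap, and replicate 2 of the miR-375 inhibitor group lay far below its other libraries. The group values were 430.9 ± 7.89 (SD, n = 3) and 365.6 ± 59.4 (SD, n = 3). The log2 fold change was -0.24 with a standard error of 0.10, a p of 0.017 before and 0.29 after adjustment by edgeR's quasi-likelihood test. Without miR-375 inhibitor replicate 2, the log2 fold change was -0.11 and the unadjusted p 0.26, and without inhibitor NC replicate 1 the unadjusted p was 0.052. For ZBTB21, ZBTB38 and ZNF654 an exact two-sided permutation test gave p = 0.1, the smallest that 3 libraries against 3 allow. Any gene whose groups do not overlap has this p, so it adds nothing to the lack of overlap.

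ZNF148 (ENSBTAG00000050482), also called ZBP-89, which binds GC-rich promoter elements, had the next smallest p of the list. Its normalized counts were 561.7, 510.1 and 575.2 as control and 486.5, 447.1 and 532.7 when inhibited. One miR-375 inhibitor library lay within the range of the inhibitor NC group. The log2 fold change was -0.17 with a 95% interval from -0.34 to 0.00 and an edgeR unadjusted p of 0.054, which became 0.016 without miR-375 inhibitor replicate 3 and 0.24 without miR-375 inhibitor replicate 2.

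ZNF596 (ENSBTAG00000049158), another zinc-finger gene, had normalized counts of 120.2, 81.84 and 89.15 as control and 82.28, 80.8 and 76.37 when inhibited. Its log2 fold change was -0.28, similar to that of ZBTB21, but its edgeR unadjusted p was 0.11, and without inhibitor NC replicate 1 the log2 fold change was -0.10.

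ZNF639, ZNF182 and ZNF280C had log2 fold changes of -0.11, -0.11 and 0.02, and their groups overlapped. Both identifiers of ZNF75D were counted, with normalized counts of 239.4, 234.1 and 199.4 against 198.5, 218.3 and 225.3 for ENSBTAG00000047954. The other identifier, ENSBTAG00000047939, had 42.55, 41.87 and 54.64 against 40.11, 57.72 and 43.91. Reads of such copies may have been divided between the identifiers, so their sum was also taken, which was 271 ± 14.7 (SD, n = 3) as control and 261 ± 19.9 (SD, n = 3) when inhibited. Neither the single identifiers nor the sum parted the groups.

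**Figure D1:**
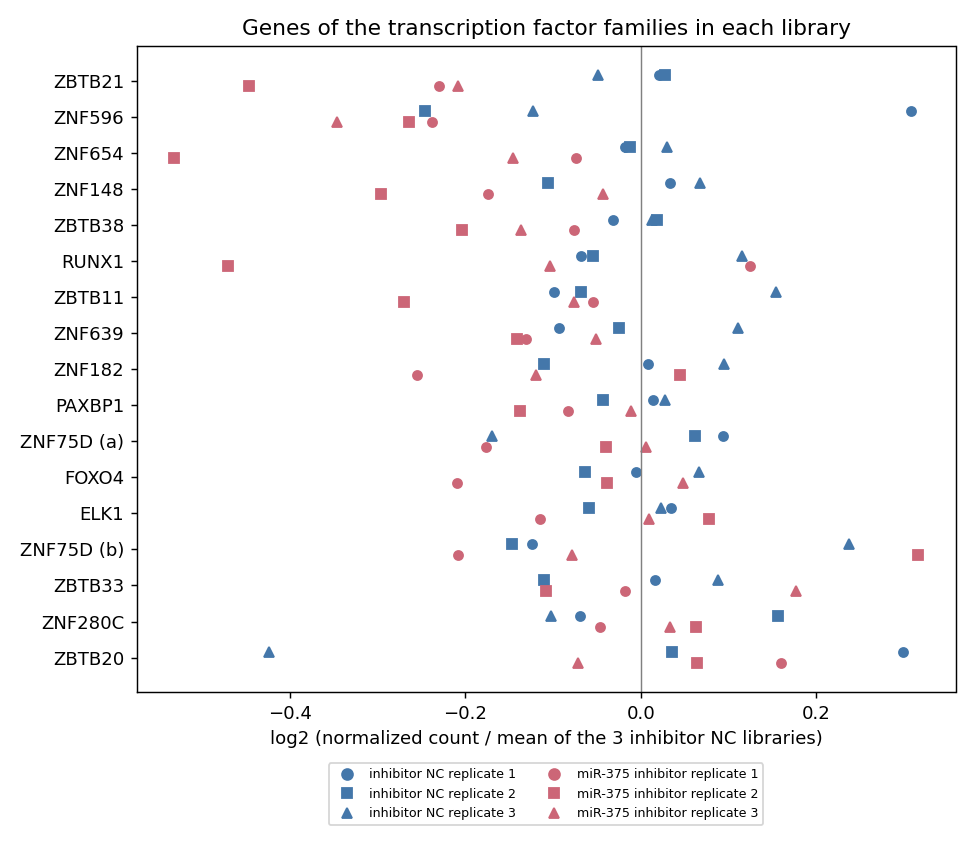
Normalized count of each of the 17 genes averaging 10 or more counts, on the horizontal axis as log2 of its ratio to the mean of the 3 inhibitor NC libraries. Each point is 1 library, coloured by group and shaped by replicate number, and ZNF75D (a) and (b) are ENSBTAG00000047954 and ENSBTAG00000047939. The groups part without overlap for ZBTB21, ZBTB38 and ZNF654, all lower, as they do for 8.83% of all genes with such counts. The lowest library is miR-375 inhibitor replicate 2 for 8 of the 17 genes and for 19.8% of all genes with such counts.

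Outside the zinc-finger classes, the families averaging 10 or more counts had 1 gene each. RUNX1 (ENSBTAG00000004742) encodes the Runt-domain factor that works with CBFB and is best known from blood formation. Its normalized counts were 338.3, 341.7 and 384.4 as control and 386.7, 256.1 and 330.3 when inhibited. The miR-375 inhibitor libraries held both the highest and the lowest value of RUNX1. Its log2 fold change was -0.13 with a standard error of 0.10 and an edgeR unadjusted p of 0.22. Without miR-375 inhibitor replicate 2 the log2 fold change was 0.01, and without miR-375 inhibitor replicate 1 it was -0.27 with an unadjusted p of 0.024.

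ELK1 (ENSBTAG00000015817) is the ETS factor that MAP kinases phosphorylate and that activates immediate early genes together with SRF. Its normalized counts were 380.9, 356.9 and 377.7 as control and 343.5, 392.5 and 374.2 when inhibited. The log2 fold change was -0.01, with a 95% interval from -0.19 to 0.18. FOXO4 (ENSBTAG00000004879), a forkhead factor that AKT keeps out of the nucleus, had 114.9, 110.4 and 120.8 against 99.77, 112.3 and 119.3, a log2 fold change of -0.06 and a 95% interval from -0.35 to 0.23. PAXBP1 (ENSBTAG00000003064) had 1312, 1261 and 1324 against 1226, 1181 and 1289, with a log2 fold change of -0.08 and an edgeR unadjusted p of 0.24.

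Limits were set for the 17 genes from the edgeR fit, whose spread is estimated largely from all genes together. An interval from the libraries of each gene alone was not computed. Standard errors of the log2 fold change lay between 0.05 and 0.22, and all 17 intervals at 95% stayed within a 2-fold change in either direction. For 16 of the 17 they stayed within a 1.5-fold change. The exception was ZNF596, whose interval reached -0.61. The 14 genes with an unadjusted p of at least 0.05 had log2 fold changes between -0.28 and 0.06.

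**Figure D2:**
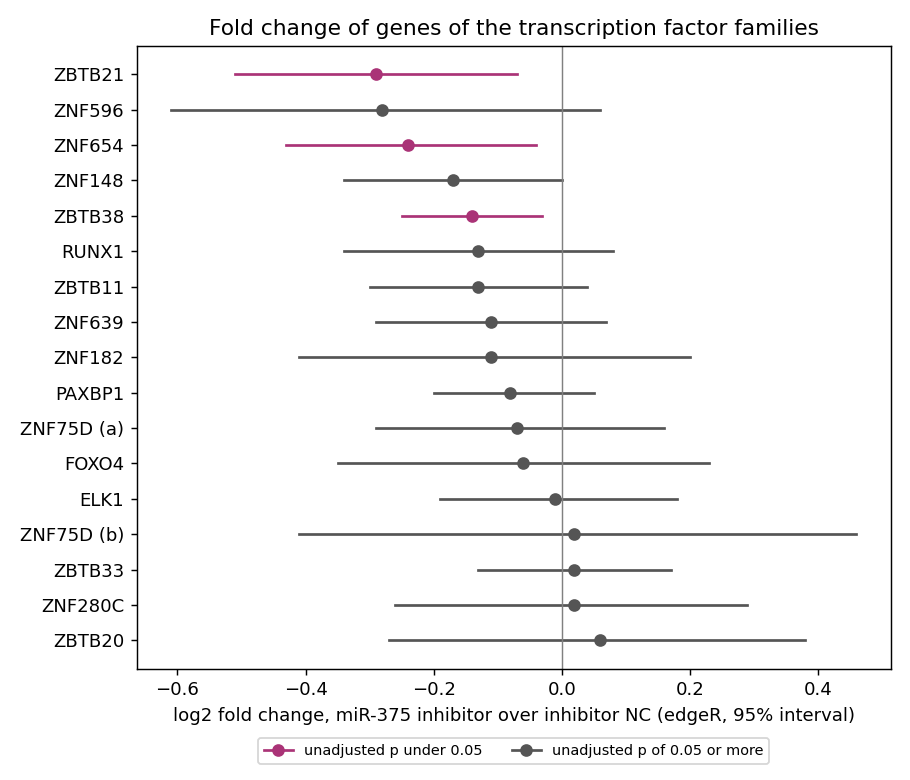
Fitted log2 fold change (point) of the miR-375 inhibitor group over the inhibitor NC group on the horizontal axis, with its 95% interval (line) from edgeR, for the 17 genes averaging 10 or more counts. Intervals lie wholly below 0 for 3 genes, ZBTB21, ZNF654 and ZBTB38, and no interval reaches beyond -0.61 or 0.46. An edgeR unadjusted p under 0.05 with a lower value was reached by 8.13% of all genes with such counts.

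Of the 17 genes, 13 (76.5%) had a log2 fold change below 0 and 4 above it, while 50.6% of the 14154 genes averaging 10 or more counts were below 0. Among the genes paired with a symbol and counted as deeply, 55.6% of 736 were below 0. The median log2 fold change was -0.11 for the 17 genes, -0.02 for these 736 genes and 0.00 over all 14154. With each library left out in turn, between 11 and 15 of the 17 were below 0. With another size factor or low-count filter the number was 13 each time. Groups that did not overlap were seen in 3 of the 17, all lower in the miR-375 inhibitor group, where 8.83% of all genes with such counts were lower without overlap and 9.06% higher. This balance is a description without a test, as the genes share the libraries they were measured in.

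**Figure D3:**
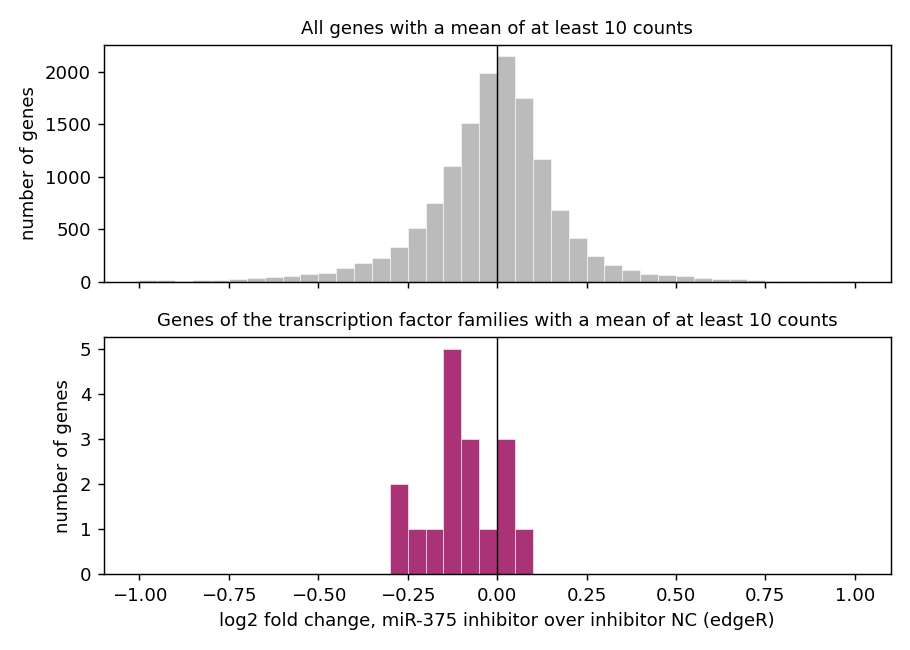
Number of genes (vertical axis) by log2 fold change of the miR-375 inhibitor group over the inhibitor NC group (horizontal axis, bins of 0.05), for all 14154 genes averaging 10 or more counts, 44 of which lie outside the plotted range, and for the 17 genes of the families. The family genes lie between -0.29 and 0.06, with 13 of 17 below 0, against 50.6% of the 14154 genes.

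Replicate 2 of the miR-375 inhibitor group had the lowest normalized count for 8 of the 17 genes (47.1%), among them ZBTB21, ZBTB38, ZNF654, ZNF148, RUNX1 and ZBTB11, and was the lowest library for 19.8% of all genes with such counts. It was the lowest for 26.5% of the genes paired with a symbol and for 14 of 32 (43.8%) of the transcription co-regulators described below. Without that library, 14 of the 17 were below 0, 12 of them also below 0 with all libraries, and the median log2 fold change was -0.08. Of the 25 tested members, 1 then had an unadjusted p under 0.05, as had 10.8% of all genes. It was ZNF81 (unadjusted p = 0.013), one of the 8 low genes, whose counts in the miR-375 inhibitor group were then 5 and 2. Summed over the 34 genes, the level was 576.9, 570.1 and 594.7 CPM as control and 549.1, 509.3 and 556.2 when inhibited. The groups did not overlap, and the means differed by -7.3%. With ZBTB38 left out, which held the most counts of the list, the difference was -6.34%, and the groups overlapped. For the ZNF and ZSCAN genes alone the difference was -9.6% and for the ZBTB genes -7.46%.

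Other genes of transcription control were read from the same fit, from lists that the family prefixes do not cover. Of 32 other transcription factors, 23 were tested, 0 had an adjusted p under 0.05 and 2 had an unadjusted p under 0.05 by edgeR, both lower, with 1 of them by DESeq2. Over all genes tested, 10.6% had such a p by edgeR and 5.63% by DESeq2. They were ETV5, an ETS factor downstream of FGF and ERK signalling, and MYNN, a BTB zinc-finger factor. ETV5 (ENSBTAG00000014915) had normalized counts of 1447, 1405 and 1396 against 1299, 1323 and 1177 and a log2 fold change of -0.16. MYNN (ENSBTAG00000013142) had 679.8, 643.3 and 720.9 against 598.6, 566.7 and 651 and a log2 fold change of -0.17. The groups of ETV5 did not overlap and those of MYNN did. In this list 14 of 21 genes averaging 10 or more counts (66.7%) were below 0, with a median log2 fold change of -0.02.

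Of 36 transcription co-regulators, 35 were tested, and 8 had an unadjusted p under 0.05 by edgeR, 7 lower and 1 higher. Such a p was reached by 10.6% of all genes tested and by 15.4% of those paired with a symbol. In the lower direction these shares were 5.96% and 10.4%. By DESeq2, 6 co-regulators had an unadjusted p under 0.05, all lower, against 5.63% of all genes in both directions. An edgeR adjusted p under 0.05 was reached by 2 of the 35, both lower, and by 1.69% of all genes. CHAF1B, a subunit of the chromatin assembly factor that loads histones behind the replication fork, had normalized counts of 830.9, 712.8 and 642.3 as control and 555.4, 655.9 and 465.8 when inhibited. It fell by 0.38 on the log2 scale (edgeR adjusted p = 0.0099), although the groups overlapped. SKIL, a co-repressor of SMAD signalling, had 743.6, 826.1 and 865.6 against 688.1, 594 and 718.8. It fell by 0.28 on the log2 scale (edgeR adjusted p = 0.04), and its groups did not overlap. Both calls depended on the settings: over the alternatives the adjusted p lay between 5.4e-06 and 0.59 for CHAF1B and between 0.0024 and 0.32 for SKIL. The adjusted p of CHAF1B was 0.59 without inhibitor NC replicate 1, 0.076 without miR-375 inhibitor replicate 1 and 0.2 without miR-375 inhibitor replicate 3. That of SKIL was 0.033 without miR-375 inhibitor replicate 3 and between 0.089 and 0.32 when any other library was left out. DESeq2 gave an adjusted p of 0.088 for CHAF1B and of 0.12 for SKIL.

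The other co-regulators with an unadjusted p under 0.05 in edgeR were NFKBIZ, NRIP1, PHF6, HDAC6 and PRMT2, with log2 fold changes from -0.27 to -0.18, and BCORL1 with 0.24. The adjusted p of NFKBIZ was 0.064, and over the alternatives it lay between 0.00072 and 0.55. NFKBIZ encodes a nuclear modulator of NF-κB, NRIP1 a co-repressor of nuclear receptors, HDAC6 a mostly cytoplasmic deacetylase and BCORL1 a co-repressor. Of the 32 co-regulators averaging 10 or more counts, 24 (75.0%) were below 0, with a median log2 fold change of -0.07. Their share below 0 was thus near that of the zinc-finger and other families, so the balance was not shown to be particular to these families. Summed, the co-regulators had 2209, 2251 and 2300 CPM as control and 2157, 2050 and 2201 when inhibited. The other transcription factors had 863.1, 862.1 and 898.8 compared with 848.6, 828.8 and 888.8. The groups did not overlap for the co-regulators, where the nearest libraries were 2201 and 2209, and overlapped for the other transcription factors.

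**Figure D4:**
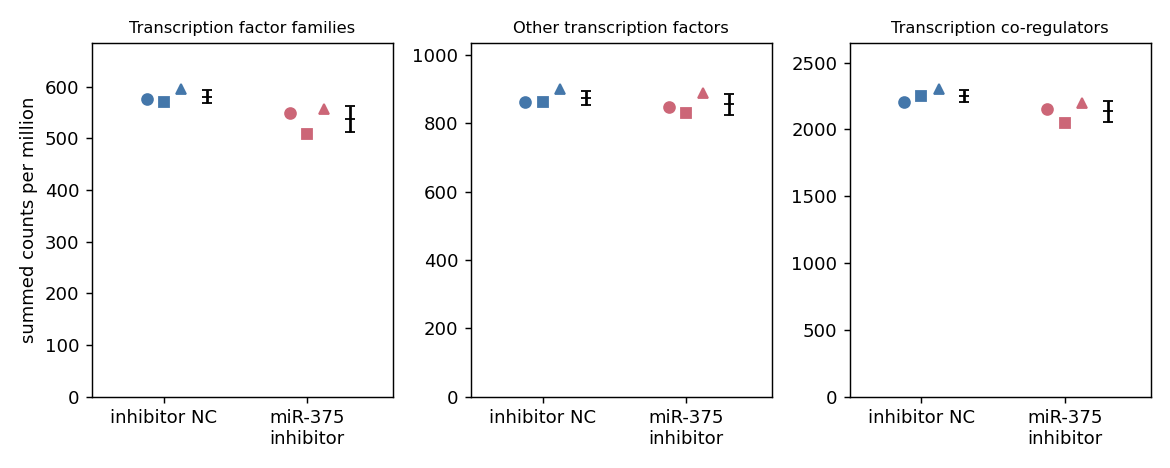
Summed CPM (vertical axis, from 0) of the 34 genes of the transcription factor families, of 32 other transcription factors and of 36 transcription co-regulators, in each library of the 2 groups. Points are libraries, with circles, squares and triangles for replicates 1, 2 and 3, and the black bars are the mean ± SD of 3 libraries. The mean of the miR-375 inhibitor group differs from the control by -7.3% for the families, -2.2% for the other factors and -5.21% for the co-regulators.

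Markers of cell types with a symbol in the study's lists were read in the same libraries. Keratin genes were not among them, so the epithelial label was checked mainly on CXADR, with 894 to 1220 raw counts in a library, and CLDN1. Of 9 epithelial markers, which share TP63 with the list of other transcription factors, 2 were at 0 in all libraries (ILDR1 and TMPRSS2). Their summed level lay between 81.73 and 87.85 CPM as control and between 71.15 and 79.3 CPM when inhibited. CXADR held most of this sum, with a log2 fold change of -0.12 and an edgeR adjusted p of 0.57. The raw counts of CLDN1, a tight junction protein, were 200, 182 and 160 as control and 129, 114 and 126 when inhibited, with a log2 fold change of -0.53 and an edgeR adjusted p of 0.022. That adjusted p was 0.49 and 0.056 without inhibitor NC replicates 1 and 2, 0.065 and 0.097 without miR-375 inhibitor replicates 1 and 3, and 0.18 among genes with at least 10 counts in total. TP63 and LIPH had log2 fold changes of -0.70 and -0.19, with edgeR adjusted p-values of 0.65 and 0.84. MUC4, MUC20 and RIPK4 of the same list had log2 fold changes of 0.69, 0.53 and 0.42 at no more than 7 counts in a library. Of 13 immune markers, 4 were at 0 (TIGIT, CD86, SH2D1A and CD40LG), and the sum lay between 3.839 and 5.251 against 4.971 to 6.029 CPM, most of it CD80. Of 7 stromal markers, TNMD was at 0, and COL6A1, COL6A2 and FSTL1, with log2 fold changes of 0.11, 0.09 and -0.01, made up nearly all of a sum of 1533 to 1549 against 1580 to 1632 CPM. LUM had 11, 7 and 0 counts against 0, 0 and 2, and COL8A1 and BGN, at no more than 4 counts in a library, also had log2 fold changes below 0. The epithelial sum was lower and the stromal sum higher in the miR-375 inhibitor group without overlap, while the sum of the transcription factor families was lower, and the part of these shifts in the values of the families was not tested.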

How the data were processed

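Poly(A)-selected RNA of MAC-T cells was sequenced in 3 libraries per group. The deposited values are raw counts per gene, which the authors made by mapping reads with HISAT2 to the bovine genome they name as UMD 3.1 and counting with featureCounts. Tool versions and the use of strand are not given in the sources used here, so genes that overlap on opposite strands may share counts. Gene symbols came from the study's gene lists, held in part, and gene order from RefSeq (ARS-UCD2.0), in which all 34 identifiers matched by symbol.

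All genes counted at least 1 time entered edgeR's quasi-likelihood test (version 4.0.16, R 4.3.3), with TMM factors and Benjamini-Hochberg adjustment across them. The model held the group only. Normalized counts are counts divided by the effective library size relative to the geometric mean of the 6. Standard errors were derived from the log2 fold change and the F statistic of the test. Intervals are at 95% and use the prior and residual degrees of freedom of the fit together. Summed levels are CPM on the same library sizes, without a test. The procedure was tested on simulated counts of genes averaging 10 or more, with a common spread for every gene. That simulation left out the low-count genes of the main fit. It therefore does not bear on how the calls depend on the low-count filter. Alternatives were DESeq2 1.42.0, its size factors, 2 low-count filters, a robust fit, the replicate number as a term, and each library left out.

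The members and lists were chosen with earlier results of these data known. Values in every library are given for members with an unadjusted p under 0.05 or groups that do not overlap and for the most counted member of each family with a mean of at least 10 counts. From the other lists, genes with an adjusted p under 0.05, or an unadjusted p under 0.05 with such counts, are named. ZBTB11, ZBTB20, ZBTB33, ZNF75D, ZNF596 and the low genes were added after their values were seen.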

Additional observations from a re-analysis of the deposited data

How the results depend on the processing

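No member of the families had an adjusted p under 0.05 in any of the 12 alternatives, where the smallest was 0.061 for ZBTB38. DESeq2 gave no adjusted p for 17 of the 25 members. The number of all genes with an adjusted p under 0.05 depended strongly on the processing: it was 350 with edgeR, 75 with DESeq2, 0 with at least 10 counts in total and 0 with filterByExpr, and with each library left out it lay between 0 (without inhibitor NC replicate 1) and 756 (without inhibitor NC replicate 3). The cause was not tested. With each library left out, the number of members with an unadjusted p under 0.05 lay between 1 and 4 (7.54% to 13.1% of all genes), and their median log2 fold change between -0.12 and -0.06.

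With the replicate number as a block, 840 of all genes had an adjusted p under 0.05, and 4 members had an unadjusted p under 0.05 (13.3% of all genes). The number of co-regulators with an adjusted p under 0.05 was then 5 in place of 2, with NFKBIZ at 0.0021 and NRIP1 at 0.024. Same-numbered libraries correlated in their deviations from the group means with r of -0.035, 0.103 and 0.248 across 14154 genes, which are not independent replicates. In the inhibitor NC group, replicates 2 and 3 each had their highest r with the library of the same number (0.103 and 0.248). Replicate 1 did not, and its highest r was with replicate 2 of the inhibited group (0.166). Whether same-numbered libraries were handled together was not tested. The main model held the group only and did not pair them.

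Among the members averaging 10 or more counts, fold changes turned direction only when a library was left out, and for genes whose groups overlapped. The log2 fold changes then ranged from -0.12 to 0.23 for ZBTB20, from -0.06 to 0.08 for ZBTB33, from -0.03 to 0.10 for ZNF280C, from -0.14 to 0.16 for ZNF75D (ENSBTAG00000047939), from -0.27 to 0.01 for RUNX1, from -0.12 to 0.01 for FOXO4 and from -0.05 to 0.04 for ELK1. Of the low genes, ZSCAN23 also turned, with log2 fold changes from -0.54 to 0.63. Depth limits the 8 genes with a mean under 10 counts, and 3 libraries a group limit the rest.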
